A study of Mus musculus with 6 samples.

Results

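The Id family (inhibitors of differentiation) was compared between untreated EpRas cells and EpRas cells after long-term induction of EMT. The family was taken as the 4 listed symbols *Id1*, *Id2*, *Id3* and *Id4*, and each of the 4 was found on the array, out of 18820 genes with a probe set of their own. Each Id gene has 1 probe set, so that no choice between probe sets was needed. The EpRas line derives from the BALB/c mammary epithelial line EpH4 by stable overexpression of the oncogene Ha-Ras, which both groups therefore carry. The 3 control samples are untreated cells, and the 3 long-term EMT samples are cells kept with 2 ng/ml of TGF-β1 for 14 days. RNA came from triplicate samples of this 1 cell line, and separate cultures are not stated for the arrays. A p-value here thus sets a difference against the spread between these samples alone, which may be technical. An Affymetrix array (MoGene-1_1-st-v1) was run per sample, and its values are on the log2 scale of the RMA algorithm.

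Id proteins are helix-loop-helix proteins that lack the basic region with which their relatives contact DNA. They bind the E proteins (*Tcf3*, *Tcf4* and *Tcf12*), which are the common partners of tissue-restricted basic helix-loop-helix (bHLH) factors, and keep them off DNA. In epithelial cells *Id1*, *Id2* and *Id3* are well-known direct targets of BMP signaling through Smad1, Smad5 and Smad9, while TGF-β acts mainly through Smad2 and Smad3. In the mammary gland, Id proteins have been linked to the balance between growth and differentiation.

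The sequences upstream of 3 of the genes are shown because the Id genes are known targets of Smad proteins and all fell in these cells. They are the 250 bases before the start of each gene, from RefSeq on build GRCm38.p6, written 5′ to 3′ on the strand of the gene, for *Id2* at chr12:25096093-25096342 (minus strand), *Id3* at chr4:136143572-136143821 (plus strand) and *Id4* at chr13:48260866-48261115 (plus strand). Capitals mark GGCGCC, a motif bound by BMP-activated Smads, and CAGAC, part of the general Smad element, both searched on both strands, so that CAGAC on the other strand reads GTCTG.
Id2: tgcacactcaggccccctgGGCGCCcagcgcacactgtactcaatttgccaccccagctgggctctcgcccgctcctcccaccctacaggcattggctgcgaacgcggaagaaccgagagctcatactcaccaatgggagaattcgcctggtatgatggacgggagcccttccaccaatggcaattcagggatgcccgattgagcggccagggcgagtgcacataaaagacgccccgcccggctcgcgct
Id3: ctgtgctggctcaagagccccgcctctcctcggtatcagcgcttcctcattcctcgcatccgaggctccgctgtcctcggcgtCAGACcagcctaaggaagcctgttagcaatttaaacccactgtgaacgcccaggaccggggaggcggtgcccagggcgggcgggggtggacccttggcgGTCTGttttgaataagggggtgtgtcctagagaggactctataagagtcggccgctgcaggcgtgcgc
Id4: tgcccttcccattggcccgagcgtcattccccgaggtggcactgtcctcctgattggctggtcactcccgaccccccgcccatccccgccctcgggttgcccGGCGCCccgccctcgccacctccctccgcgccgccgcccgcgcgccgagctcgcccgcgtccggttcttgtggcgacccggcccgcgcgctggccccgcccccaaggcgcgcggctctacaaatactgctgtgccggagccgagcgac
GGCGCC stands once in the windows of *Id2* and *Id4*, and CAGAC stands at 2 places in that of *Id3*. Over 32851 promoter windows of the same length, 9.59% hold GGCGCC and 42.2% hold CAGAC, so that CAGAC in particular is common. The E-box CANNTG, which E proteins bind, stands once in the window of *Id2* and is in 66.2% of all windows. These matches are descriptions of the letters and were not tested as binding sites.

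All 4 Id genes were lower after long-term EMT, and in each the 3 values of long-term EMT cells were under all 3 control values. By value the fall was deepest in *Id2*, 17.3-fold, between 5.86-fold and 6.56-fold in *Id1* and *Id3*, and small in *Id4*, 1.69-fold. To pass, a probe set needed a fold of more than 1.5 and a limma p below 0.05 after Benjamini-Hochberg adjustment across the 35556 probe sets of the array, and "rose" and "fell" are used for genes that did so. By this rule all 4 genes fell, where 0.928% of all probe sets fell. Groups that lie apart in this direction were found for 8.68% of all probe sets. The median log2 change (log2 of the fold, long-term EMT minus control) of the 4 genes was -2.63, against 0.02 over all probe sets.

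*Id2*, which is needed for normal growth of the mammary gland in pregnancy, had log2 values of 11.16, 11.16 and 11.25 in control cells and of 7.62, 7.17 and 6.44 in long-term EMT cells. The controls were nearly equal, and the long-term EMT arrays were spread over 1.18 log2 units, with replicate 3 lowest. The mean went from 11.19 ± 0.05 (SD, n = 3) to 7.08 ± 0.60 (SD, n = 3). The log2 change of *Id2* was thus -4.11 (standard error, SE, 0.28, limma adjusted p = 0.00274), and the 95% confidence interval of the fall runs from 10.8-fold to 27.8-fold. Ordered by value over all probe sets, it was the fall of rank 15.

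*Id1*, long studied in breast cancer invasion, had log2 values of 10.80, 10.46 and 10.50 in control cells and of 8.38, 8.01 and 7.72 in long-term EMT cells. The groups were 2.08 log2 units apart at their nearest, and replicate 3 was again lowest. The log2 change was -2.55 (SE 0.19, limma adjusted p = 0.0031), with a 95% confidence interval from 4.29-fold to 8.0-fold lower. In *Id3*, which has overlapping roles with *Id1* in development, control values of 9.39, 9.75 and 9.50 stood against long-term EMT values of 6.97, 6.57 and 6.96. Here replicate 2 was the lowest long-term EMT array, and the arrays of a group lay within 0.36 (control) and 0.40 (long-term EMT) of each other. The log2 change was -2.71 (SE 0.15, limma adjusted p = 0.00144), with an interval from 5.10-fold to 8.43-fold lower.

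*Id4*, which marks basal and progenitor cells of the mammary gland and is less tied to BMP signaling, had a control mean of 5.91, 1.44 above the background level. Its values were 6.07, 5.84 and 5.83 in control cells and 5.04, 5.15 and 5.27 in long-term EMT cells. The groups did not overlap, but their gap was 0.56 log2 units. The log2 change was -0.76 (SE 0.11, limma adjusted p = 0.0232), and its interval, from 1.42-fold to 2.02-fold lower, includes falls under the limit of 1.5-fold. The long-term EMT mean of *Id4*, 5.15, was 0.68 above that level of 4.48. The level stands for genes that these cells should not express and was set so that 95% of 1006 probe sets of olfactory receptors have a mean under it. The other 3 genes ended 2.36 to 3.56 above this level, so that the mean of none of the 4 genes reached it.

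**Figure D1:**
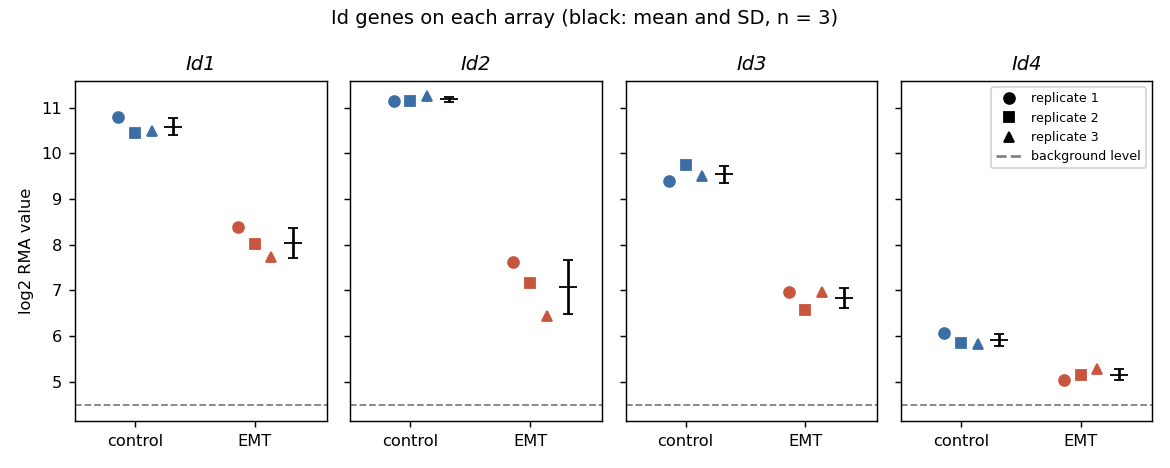
Values of the Id genes on each array (log2 RMA value, vertical axis) in control and long-term EMT (EMT) cells, n = 3 arrays per group, with the mean and SD beside the points in black and the background level of 4.48 as a dashed line. For each gene the points of long-term EMT cells lie below those of control cells, and all arrays lie above the dashed line.

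The call of *Id4* rested on single arrays. It passed without control replicate 1 (log2 change -0.68, limma adjusted p = 0.0275) and failed to pass when any other array was left out, with adjusted p from 0.0521 to 0.116, while its log2 change stayed between -0.82 and -0.68. *Id1*, *Id2* and *Id3* passed whichever array was left out, with log2 changes from -2.72 to -2.39, from -4.39 to -3.80 and from -2.79 to -2.58. With the methods' t-test on the log2 values and Benjamini-Hochberg adjustment, which called 43 probe sets higher and 26 lower, *Id3* passed (adjusted p = 0.0453), and *Id1*, *Id2* and *Id4* had adjusted p of 0.0681, 0.0668 and 0.112.

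**Figure D2:**
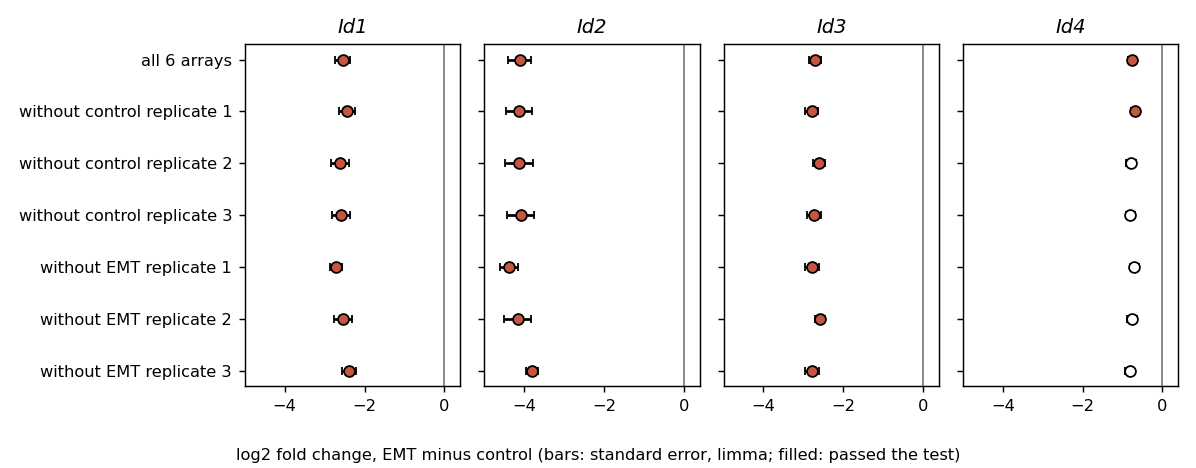
Log2 fold change of each Id gene (EMT minus control, horizontal axis, bars are standard errors from limma) with all 6 arrays and with each array left out in turn. Filled points passed the test and open points did not. The points of *Id1*, *Id2* and *Id3* are filled throughout, and those of *Id4* are filled with all arrays and without control replicate 1.

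The size of the fall differed between members by value. *Id4* began 1.44 log2 units above the background level and the others 5.1 to 6.7 above it, so that less of a fall could be read in *Id4*. Within each array the value of *Id2* minus that of *Id1* was 0.36, 0.70 and 0.75 in control cells and -0.76, -0.84 and -1.28 in long-term EMT cells. The groups did not overlap, and the change of *Id2* minus that of *Id1* was -1.56 log2 units (SE 0.20). The change of *Id2* minus that of *Id3* was -1.40 (SE 0.40), and minus that of *Id4* it was -3.35 (SE 0.42). The changes of *Id1* and *Id3* minus that of *Id4* were -1.79 (SE 0.26) and -1.95 (SE 0.23). For these 5 pairs the groups lay apart, and the exact two-sided permutation test over arrays gave p = 0.1, the smallest p that 3 against 3 arrays allow (adjusted p = 0.12 over the 6 pairs). For *Id1* against *Id3* the difference was 0.16 (SE 0.30, exact permutation p = 0.6, also after adjustment), and the groups overlapped.

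The arrays differed in epithelial genes within the groups. Control replicates 2 and 3 had r = 0.995 with each other across probe sets and 0.987 to 0.989 with the long-term EMT arrays. Control replicate 1 stood apart from these 2 controls, with r = 0.987 and 0.984. Of the epithelial markers that fell, it had the highest control values of *Cdh1*, *Epcam* and *Cldn7*, while *Krt14* was highest in control replicate 3 (9.81, against 9.77). It also had the highest control values of *Id1* and *Id4* but not of *Id2* and *Id3*. Without it the log2 changes of *Id1*, *Id2* and *Id3* were -2.44, -4.13 and -2.79. Among the long-term EMT arrays, replicate 1 had the highest values of *Cdh1* (4.78, against 4.31 and 4.34), *Epcam* (6.73, against 5.80 and 5.86) and *Krt14* (8.04, against 7.04 and 7.27), but the lowest of *Cldn7* (5.71, against 5.77 and 5.79). It had the highest values of *Id1*, *Id2* and, by 0.01, *Id3*, and the lowest of *Id4*. Without it *Id1*, *Id2*, *Id3* and *Id4* had log2 changes of -2.72, -4.39, -2.78 and -0.70, the last without passing. In bulk samples, fewer cells with a gene's RNA and less of it per cell cannot be told apart. Of 9 listed mammary epithelial markers 4 fell (*Cdh1*, *Epcam*, *Cldn7* and *Krt14*), where 0.928% of all probe sets did. *Epcam* and *Krt14* passed in 3 of 6 fits with 1 array removed. The summed level (unlogged) of the 9 was 16368 to 20697 in control and 13999 to 15241 in long-term EMT cells. The keratins *Krt8* and *Krt18* of simple epithelia stayed high, at means of 12.8 and 12.6 in control and 12.8 and 12.6 in long-term EMT cells. *Krt5* and *Krt19*, markers of basal and luminal cells, had control means of 4.61 and 5.10, near the background level. *Ptprc*, which defines leukocytes, lay between 4.69 and 4.83 on all arrays, and *Itgam* lay below the background level. *Cd3e* and *Csf1r* had means of 4.83 and 4.85 in control and 4.99 and 4.89 in long-term EMT cells. *Cd68*, like *Csf1r* a macrophage marker, read from 8.22 to 9.24 over the 6 arrays. None of 5 leukocyte markers and none of 4 adipocyte markers passed, also at an unadjusted p under 0.05 with limma or the methods' t-test, with summed levels of 400.4 to 703.7 and 97.4 to 116.2 in control and 465.7 to 710.2 and 96.6 to 110.6 in long-term EMT cells. Of 6 endothelial markers *Cdh5* rose, where 0.993% of all probe sets did, from 4.81, 4.73 and 4.80 to 7.93, 7.39 and 6.48. This gene is also among those that the paper names as known EMT-related genes, and was measured there by q-PCR. It passed without control replicate 1 or long-term EMT replicate 3 but not without any of the other 4 arrays (limma adjusted p from 0.0503 to 0.118). The summed level of the list was 119.9 to 127.8 in control and 188.3 to 339.4 in long-term EMT cells. *Pecam1*, *Tek*, *Kdr* and *Emcn* had means under the background level in both, and *Vwf* had means of 5.18 and 5.19, above it. The part of these genes in the falls of the Id genes was not tested.

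The E proteins, the main partners of Id proteins, did not pass the test. *Tcf12* (HEB) had values of 10.88, 10.84 and 10.84 in control and 10.79, 10.89 and 10.87 in long-term EMT cells, so that the groups overlapped. Its log2 change was -0.003 (95% confidence interval -0.18 to 0.17, limma adjusted p = 0.994). *Tcf3*, which encodes E12 and E47, had values of 9.87, 9.70 and 9.86 against 9.87, 10.05 and 9.94, with a log2 change of 0.14 (interval -0.07 to 0.36, adjusted p = 0.593). *Tcf4* (E2-2) was less well measured, with values of 9.96, 9.32 and 9.19 against 9.50, 9.48 and 9.37, and its interval runs from -0.53 to 0.45 around a log2 change of -0.04 (adjusted p = 0.966). None of the 3 passed, where 1.92% of all probe sets passed in either direction. None of them had an unadjusted p under 0.05 either, where limma gave one to 13.5% of all probe sets and the methods' t-test to 12.3%. All 3 intervals lie within a 1.5-fold change in either direction.

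Tissue-restricted bHLH factors are the partners that E proteins carry to DNA. Of 14 measured members of this list, *Atoh8* fell (0.928% of all probe sets did). The other 13 did not pass, with log2 changes from -1.0 to 0.20. Means of 5 of the 14 were under the background level in both groups. *Atoh8*, a known target of BMP signaling, had values of 6.75, 6.81 and 6.66 in control and 4.28, 4.99 and 5.10 in long-term EMT cells. The long-term EMT arrays lay well below the controls, with replicate 1 lowest and below the background level. The log2 change was -1.95 (SE 0.22, limma adjusted p = 0.0113). *Atoh8* did not pass without control replicate 2 (adjusted p = 0.0652) or long-term EMT replicate 2 (adjusted p = 0.0557). Of 11 measured proteins outside the bHLH family that Id proteins have been reported to bind, such as the retinoblastoma family and Ets factors, none passed. *Rb1*, the retinoblastoma gene, whose protein binds Id2, came nearest, with values of 9.19, 8.87 and 8.78 in control and 9.53, 9.65 and 9.47 in long-term EMT cells. These groups did not overlap, but the adjusted p was 0.0811 (log2 change 0.60, SE 0.13, limma), and *Rb1* was the 1 gene of this list with a fold over 1.5 and an unadjusted p below 0.05, by limma (4.78% of all probe sets) and by the methods' t-test (3.73%).

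The Hes, Hey and Bhlhe genes encode bHLH repressors that bind DNA themselves. Of these 9 genes 2 fell, against 0.928% of all probe sets, and the other 7 had log2 changes from 0.04 to 0.68. *Hey1*, a target of Notch and BMP signaling, had values of 6.94, 6.99 and 6.95 in control and 6.11, 6.07 and 6.21 in long-term EMT cells. Both groups were tight, and *Hey1* passed whichever array was left out (log2 change -0.83, SE 0.07, limma adjusted p = 0.00602). *Bhlhe41* (Dec2) fell, with a log2 change of -1.69 (SE 0.29, limma adjusted p = 0.0467), from 9.30, 8.50 and 8.45 to 7.47, 7.05 and 6.67. With 1 array removed it passed only without control replicate 1 (log2 change -1.41), and the other 5 fits gave adjusted p from 0.0739 to 0.188.

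Among the signals upstream of the Id genes, the BMP ligand *Bmp4* fell, the BMP ligand *Bmp7* rose and the BMP antagonist *Grem1* rose. *Bmp4* had values of 10.82, 11.05 and 11.15 in control and 8.92, 8.76 and 8.03 in long-term EMT cells. As for *Id1* and *Id2*, replicate 3 was the lowest long-term EMT array. *Bmp4* was 5.41-fold lower (log2 change -2.44, SE 0.24, limma adjusted p = 0.00769). *Bmp7* went the other way, from 9.76, 10.00 and 10.17 to 11.22, 11.39 and 11.19, and was 2.45-fold higher (log2 change 1.29, SE 0.13, limma adjusted p = 0.00746). Its second probe set, whose mean of 4.40 lies below the background level, had a log2 change of 0.52 and did not pass (adjusted p = 0.123). Of 12 listed BMP ligands these were the 2 that passed, where 0.928% of all probe sets fell and 0.993% rose.

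*Grem1* encodes gremlin, a secreted protein that binds BMP4 and BMP7 and keeps them from their receptors. Its values were 8.56, 8.68 and 8.03 in control and 10.64, 10.53 and 10.81 in long-term EMT cells, so that the groups were far apart. It was 4.71-fold higher (log2 change 2.24, SE 0.18, limma adjusted p = 0.00494). Of 9 measured BMP antagonists it was the 1 that passed, where 0.993% of all probe sets rose, and the others had log2 changes from -1.33 to 0.16. *Bmp4*, *Bmp7* and *Grem1* passed whichever array was left out.

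Of 11 BMP receptors and co-receptors, the type I receptor gene *Acvr1* (Alk2) rose, where 0.993% of all probe sets did. Its values went from 8.25, 8.29 and 8.39 to 8.87, 8.95 and 9.0. The step was small but larger than the spread within the groups (log2 change 0.63, SE 0.08, limma adjusted p = 0.017), and *Acvr1* passed without control replicate 1 or 3 but not without any of the other 4 arrays (adjusted p from 0.0533 to 0.0983). None of the 6 Smad transducers passed, and none passed both an unadjusted p under 0.05 and a fold of 1.5 with limma or the methods' t-test, while 3 and 4 of them had an unadjusted p under 0.05 (13.5% and 12.3% of all probe sets). *Smad1* and *Smad5*, which carry the BMP signal to the nucleus, had log2 changes of 0.19 (95% confidence interval 0.01 to 0.37, adjusted p = 0.328) and 0.34 (interval 0.12 to 0.56, adjusted p = 0.156), with the long-term EMT arrays above the control arrays in both, as in 10.5% of all probe sets. *Smad9* (Smad8), dim in these cells, had values of 5.65, 5.19 and 5.44 in control and 4.79, 4.94 and 4.91 in long-term EMT cells, without overlap, with a log2 change of -0.55 (interval -0.86 to -0.23, adjusted p = 0.115).

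Other genes that BMP-activated Smads are known to induce were set beside the Id genes. Of the 12, 3 fell (*Smad6*, *Atoh8* and *Hey1*), none rose and 9 did not pass, where 0.928% of all probe sets fell and 0.993% rose, with log2 changes of those 9 from -0.55 to 0.32. The median of the 12 was -0.07. *Smad6*, the inhibitory Smad that limits BMP signaling, had values of 7.42, 7.25 and 7.27 in control and 6.27, 6.10 and 5.99 in long-term EMT cells. Both groups were tight, and *Smad6* was 2.29-fold lower (log2 change -1.19, SE 0.10, limma adjusted p = 0.00558) and passed whichever array was left out. Its relative *Smad7*, which limits TGF-β signaling as well, had a log2 change of 0.32 (adjusted p = 0.314). Of 8 inhibitory Smads and other brakes on Smads, *Smad6* was the 1 that passed, where 1.92% of all probe sets passed in either direction. Before adjustment, 3 of the 8 had a fold over 1.5 and a p under 0.05 by limma and by the methods' t-test. Of all probe sets 4.78% and 3.73% did so. In 4 of the 8 the long-term EMT arrays lay above all control arrays, as in 10.5% of all probe sets. The median log2 change of the 8 was 0.24.

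Of 11 measured genes known to be induced through Smad2 and Smad3, *Ccn2* and *Pmepa1* rose and 9 did not pass, with a median log2 change of 0.44, where 0.993% of all probe sets rose. *Ccn2* (CTGF), a matrix-associated growth regulator, had values of 9.81, 10.15 and 10.51 in control and 12.07, 11.93 and 11.85 in long-term EMT cells. It was 3.47-fold higher (log2 change 1.79, SE 0.18, limma adjusted p = 0.00835) and did not pass without control replicate 2 (adjusted p = 0.052) or long-term EMT replicate 2 (adjusted p = 0.0574). *Pmepa1*, a membrane protein that holds back TGF-β signaling, rose by 0.86 log2 units (SE 0.12, limma adjusted p = 0.0234), from 12.15, 11.78 and 11.81 to 12.73, 12.85 and 12.74, and with 1 array removed it passed only without control replicate 1 (log2 change 0.98). None of the 11 fell, but 0.928% of all probe sets did, so that this count says little. *Smad7* is in this list and in that of the BMP targets.

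**Figure D3:**
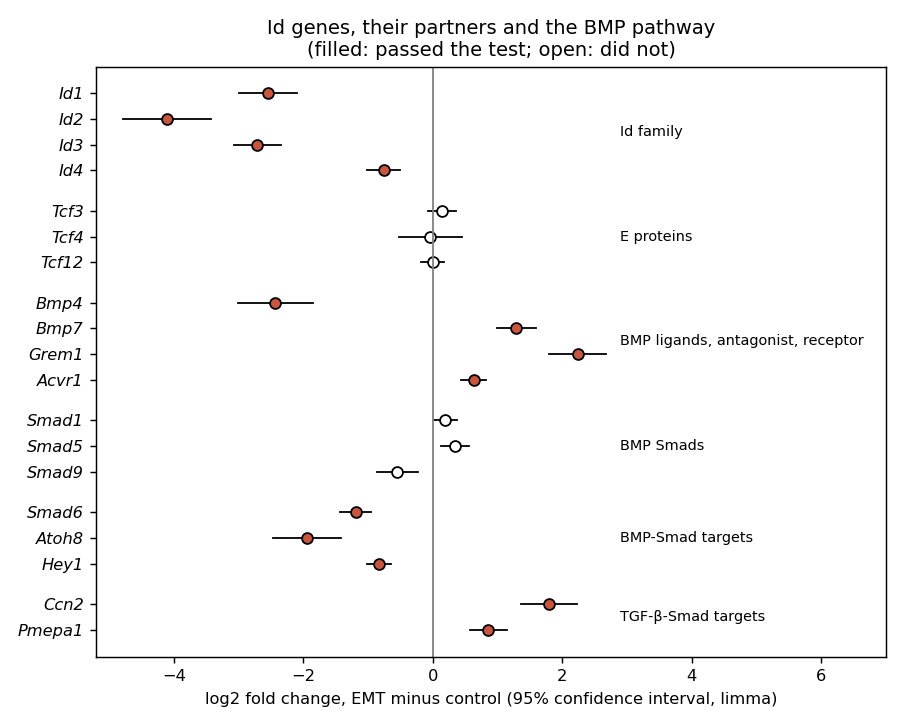
Log2 fold change (EMT minus control) with its 95% confidence interval from limma for the Id genes, the E proteins and genes of BMP and TGF-β signaling, n = 3 arrays per group. Filled points passed the test and open points did not. The Id genes lie between -4.11 and -0.76, the E proteins between -0.04 and 0.14, and *Bmp4* and *Grem1* lie on opposite sides of 0.

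**Figure D4:**
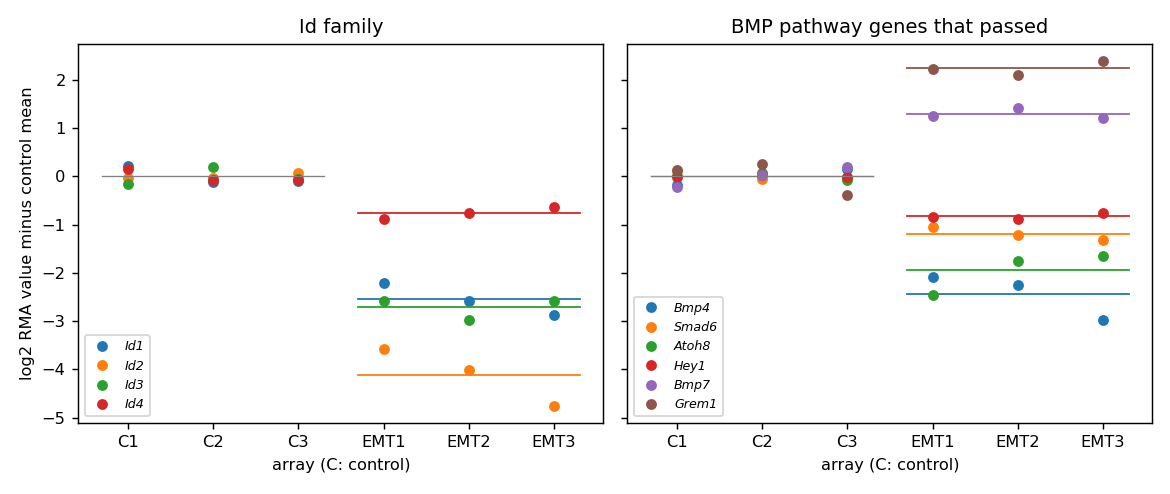
Values on each array as the log2 RMA value minus the control mean of the same gene, for the Id genes (left) and for *Bmp4*, *Smad6*, *Atoh8*, *Hey1*, *Bmp7* and *Grem1* (right), with C1 to C3 the control and EMT1 to EMT3 the long-term EMT arrays. Lines are group means. *Id1*, *Id2* and *Bmp4* are lowest in EMT3, *Id3* is lowest in EMT2 and *Id4* and *Atoh8* are lowest in EMT1.

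Factors that act on Id genes or proteins by other routes were read as well. None of 10 listed regulators of Id transcription passed with limma, among them *Atf3*, a partner of Smad3 in the repression of *Id1*, with values of 8.69, 7.50 and 7.75 in control and 9.13, 8.01 and 8.13 in long-term EMT cells. These groups overlapped, and the log2 change of *Atf3* was 0.44 (SE 0.41, limma adjusted p = 0.742). Before adjustment, *Srf* (log2 change 0.62) had a limma p below 0.05 and a fold over 1.5, and by the methods' t-test 0 genes of this list did. None of 6 measured genes of Id protein turnover passed, while before adjustment the ubiquitin ligase gene *Smurf2* (log2 change 0.63, limma adjusted p = 0.0943) did so by both tests, as did 4.78% (limma) and 3.73% of all probe sets. *Usp1*, the enzyme that removes ubiquitin from Id proteins, had a log2 change of -0.28 (SE 0.17, limma adjusted p = 0.584). *Rb1*, *Srf*, *Smurf2*, *Atf3* and *Usp1* did not pass and were chosen for mention after their values were seen.

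Of 10 genes that Id proteins are known to repress or oppose, 2 rose and 8 did not pass, where 0.993% of all probe sets rose. *Timp1*, an inhibitor of metalloproteases, rose by 0.80 log2 units (SE 0.13, limma adjusted p = 0.0416), from 10.94, 10.76 and 10.88 to 11.93, 11.52 and 11.52. *Sparc*, a matrix protein, rose by 0.65 (SE 0.12, limma adjusted p = 0.0496), from 12.14, 12.52 and 12.46 to 13.05, 13.04 and 12.99. Neither passed with any 1 array removed, at adjusted p from 0.0536 to 0.163 for *Timp1*, while *Sparc* kept an adjusted p under 0.05 without control replicate 1 but with a log2 change of 0.54, under the fold limit. The 8 others, which include the cell cycle inhibitors *Cdkn1a*, *Cdkn1b*, *Cdkn1c*, *Cdkn2a* and *Cdkn2b* and the antiangiogenic gene *Thbs1*, had log2 changes from -0.20 to 0.15.

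The genes whose profile over the 6 arrays was most like that of each Id gene were found by the root mean square difference of the log2 values, each profile taken from its own control mean, over 13417 other genes above the background level in at least 1 group. These are descriptions over 6 arrays, in which the step between the groups weighs most. For *Id1* they were *Mpzl2* (0.13), an epithelial adhesion molecule, *Crybg1* (0.18) and *Ssbp2* (0.20). *Mpzl2* had values of 11.19, 10.77 and 10.63 in control and 8.88, 8.33 and 8.09 in long-term EMT cells, with the same arrays highest and lowest among the long-term EMT arrays as for *Id1*. For *Id3* they were *Crybg1* (0.22), the tubulin gene *Tuba8* (0.25) and the integrin gene *Itgb6* (0.27), of which *Itgb6* ended below the background level. *Crybg1* thus stood near both genes, and its second probe set had a log2 change of -0.77 and did not pass (adjusted p = 0.0557). For *Id2* the nearest profiles were farther away, those of the potassium channel gene *Kcnk1* (0.32), of *Mal* (0.41), a gene of apical membrane traffic, and of *St14* (0.42), the membrane protease matriptase. The long-term EMT arrays of *Kcnk1*, *Mal* and *St14* were less spread than those of *Id2*, with SDs from 0.17 to 0.24 against 0.60. For *Id4* they were *Lgalsl* (0.06), *Rufy1* (0.07) and *Akr1c14* (0.07), of which *Akr1c14* had a control mean of 4.51 and a long-term EMT mean of 3.71, at and under the background level.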

How the data were processed

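The authors processed MoGene-1_1-st-v1 arrays of 3 control and 3 long-term EMT samples (150 ng of RNA each) with RMA, in Affymetrix Expression Console per the labels (version not given in the sources used here), and deposited log2 values with 2 decimals for 35556 probe sets. Of these 21218 have 1 gene symbol, 1881 have several and 12457 have none. Values were used as deposited, which RMA had already normalized between arrays. Genes were read from the 1-symbol probe set with the highest mean.

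The 3 long-term EMT arrays were set against the 3 control arrays in a linear model with an empirical Bayes prior (limma 3.58.1, R 4.3.3). A probe set passed with a fold of more than 1.5 and a p below 0.05 after adjustment by Benjamini-Hochberg across the array. Figures were drawn with matplotlib. The script was tested on simulated data. The number of arrays limits the precision. Of 156 listed genes 148 were measured, 2 of them (*Ccn2* and *Hjv*) through a newer symbol in RefSeq. Gene names come from GEO's platform annotation, and promoter sequences from RefSeq (GRCm38.p6), which held entries for *Id2*, *Id3* and *Id4*.

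Members, lists and tests were chosen with earlier results of these data known. The genes named are the Id genes, the E proteins, *Smad1*, *Smad5* and *Smad9*, list members that passed and the 3 nearest profiles of each Id gene, besides markers and examples. Alternatives were the methods' t-test, a trended and robust prior, other fold limits, quantile normalization, equal array medians, a filter on dim probe sets, a replicate block, other percentiles for the background level and the removal of each array in turn.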

Additional observations from a re-analysis of the deposited data

How the results depend on the processing

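The log2 fold changes of *Id1*, *Id2*, *Id3* and *Id4* kept their direction under every alternative run. *Id1*, *Id2* and *Id3* passed under all of them except the methods' t-test with Benjamini-Hochberg adjustment, where *Id1* (-2.55), *Id2* (-4.11) and *Id4* (-0.76) did not pass and 1 of the 4 Id genes did. That test called 43 probe sets higher and 26 lower, and at an unadjusted p under 0.05 it called 638 and 688, with all 4 Id genes lower. *Id4* (-0.76) also did not pass at a fold above 2, where 194 probe sets were higher and 226 lower, nor with the replicate number as a block. With any 1 array removed, *Id4* lay between -0.82 and -0.68 and passed in 1 of 6 fits, and the counts over all probe sets lay between 107 and 472 higher and between 98 and 482 lower. They were lowest without long-term EMT replicate 2, and 109 and 115 without control replicate 2, 162 and 150 without long-term EMT replicate 1 and 135 and 113 without long-term EMT replicate 3. Fewer samples enter these fits, and the cause was not tested further. The difference of the changes of *Id1* and *Id3* lay between -0.00167 and 0.385, so that its sign rests on control replicate 2. The other differences between members kept their sign. Of 196 counts over the pathway lists in the fits without 1 array or with the block, 166 stayed within 1.5 times, 25 were lower and 5 were higher.

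With the replicate block *Id1*, *Id2* and *Id3* passed (adjusted p = 0.00711, 0.0146 and 0.0158 from limma), *Id4*, *Acvr1*, *Pmepa1*, *Timp1* and *Sparc* did not (adjusted p = 0.0805, 0.052, 0.0668, 0.0554 and 0.0989), and 256 probe sets were higher and 278 lower. Samples with the same number had correlations of their deviations from the group means of 0.19, 0.02 and 0.25. Control replicates 1 and 3 correlated best with the long-term EMT array of their own number, and control replicate 2 with long-term EMT replicate 3 (0.14). With 3 arrays per group these values cannot decide whether the samples were paired. The background level was 4.24 and 5.09 at the 90th and 99th percentile of the olfactory receptor probe sets, and at the higher value long-term EMT replicate 1 of *Id4* (5.04) lies below it. A mean over the probe sets of a gene gave no other value, since each Id gene has 1.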

Other observations

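*Krt19*, a keratin of luminal cells, read 7.07 in long-term EMT replicate 1 and 5.15 and 5.01 in the other long-term EMT arrays, against 5.25, 5.07 and 4.98 in control cells. The same array had the highest *Id1* (8.38), *Id2* (7.62) and *Id3* (6.97, against 6.57 and 6.96) of the long-term EMT arrays and the lowest *Id4* (5.04). These are values of 1 array, chosen after they were seen.

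*Bmper*, a secreted modulator of BMP signaling that did not pass, had values of 6.31, 7.45 and 7.76 in control and 6.17, 5.69 and 5.66 in long-term EMT cells, so that its fall by value (log2 change -1.33, SE 0.38, limma adjusted p = 0.182) stood against a wide spread between controls. With control replicate 1 removed it fell (log2 change -1.76, limma adjusted p = 0.0117).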
